A study of Mus musculus with 10 samples.

Results

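Cd24a, Mgst1, Npy, Parm1, Glyat and Limch1 are 6 genes listed for their difference between mouse blood progenitors carrying HOXB4-ER and those carrying HOXB4const. All probe sets that the platform annotation assigns to these symbols alone were taken, which gave 15 of the 45101 probe sets on an Affymetrix GeneChip array of the mouse genome. The genes were chosen from measured levels, and which arrays that choice used is not stated in the sources used here. Their levels and their differences between the constructs are therefore a description, with no test. For each gene the probe set with the highest mean over the 10 arrays is called its leading probe set, and a gene's other probe sets are numbered in order of mean level.

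HOXB4 is a homeodomain protein that binds DNA and, at raised levels, lets blood stem cells multiply outside the body. In HOXB4-ER (HOXB4ERT in the sample titles) it is fused to an oestrogen receptor domain, and 4-hydroxytamoxifen (TMX) moves the fusion protein from the cytoplasm into the nucleus. HOXB4const is the unmodified protein, active with or without TMX. Lin-Sca1+ cells of adult mice received 1 of the constructs together with EGFP from a retroviral vector, grew for 14 days in serum-free medium with mSCF, huFL, huIL-11, mIL-3 and 10 nM TMX, and were then sorted as LSK cells (GFP+, lineage negative, Sca1+, ckit+). After 12 h more with TMX the cells were divided, so all groups, including those later without TMX, had met TMX before. There were 5 groups of 2 arrays, numbered replicate 1 and replicate 2. Of these, 3 groups carried HOXB4-ER: with TMX at 1 h, without it at 1 h, and without it at 4 h. The other 2 carried HOXB4const, with and without TMX at 1 h. HOXB4const cells at 4 h and HOXB4-ER cells with TMX at 4 h were not analysed here. The strain and age of the mice, and the number of animals or transductions behind a replicate number, are not stated in the sources used here, so p-values measure the spread between these arrays. The constructs sit in separately transduced populations, so construct and population cannot be told apart. In these bulk samples, fewer cells of a type and less RNA per cell cannot be told apart either.

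The listed genes do different work. Cd24a encodes CD24, a small, heavily glycosylated surface protein held by a GPI anchor, which binds P-selectin and Siglec receptors and is found on maturing granulocytes, erythroid cells and B cells. Parm1 encodes a mucin-like membrane glycoprotein first described as androgen-regulated in prostate. Npy encodes neuropeptide Y, a secreted peptide of sympathetic neurons that acts on G protein-coupled receptors and is also made in rodent megakaryocytes. Mgst1 encodes a microsomal glutathione S-transferase that protects membranes by joining glutathione to electrophiles and reducing lipid peroxides. Glyat encodes a mitochondrial enzyme of liver and kidney that joins glycine to acyl-CoA. Limch1 encodes a protein with LIM and calponin-homology domains that activates non-muscle myosin II.

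RefSeq promoter sequences (build GRCm38.p6) were matched for 5 of the 6 genes, with 8 start sites. Cd24a was not matched. The 250 bases before the start site are shown for the 4 sites that held the PBX-HOX form or the GC box named below, all in genes with higher levels in HOXB4const, so that the start regions of these genes can be compared. Capitals mark those motifs. They were searched on both strands, and none of the marked matches overlaps another. The Mgst1 window is chr6:138140277-138140526, the Glyat window chr19:12633058-12633307, the Npy window chr6:49822460-49822709 and the Limch1 window chr5:66745639-66745888, all on the plus strand.
Mgst1, start site 1: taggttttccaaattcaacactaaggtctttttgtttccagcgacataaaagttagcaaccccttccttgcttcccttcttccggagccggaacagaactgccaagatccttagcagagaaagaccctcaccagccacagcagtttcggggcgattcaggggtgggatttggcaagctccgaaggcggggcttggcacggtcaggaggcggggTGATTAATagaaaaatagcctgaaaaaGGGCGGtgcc
Glyat, start site 1: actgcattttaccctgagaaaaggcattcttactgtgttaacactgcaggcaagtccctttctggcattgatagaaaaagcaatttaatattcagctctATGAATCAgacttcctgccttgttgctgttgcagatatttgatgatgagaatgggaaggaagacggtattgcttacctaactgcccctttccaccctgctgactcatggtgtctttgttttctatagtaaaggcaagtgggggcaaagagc
Npy, start site 1: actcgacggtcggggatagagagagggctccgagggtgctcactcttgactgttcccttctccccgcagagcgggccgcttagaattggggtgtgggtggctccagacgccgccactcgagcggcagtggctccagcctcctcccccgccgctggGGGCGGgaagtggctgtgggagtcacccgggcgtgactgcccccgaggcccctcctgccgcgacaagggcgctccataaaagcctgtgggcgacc
Limch1, start site 1: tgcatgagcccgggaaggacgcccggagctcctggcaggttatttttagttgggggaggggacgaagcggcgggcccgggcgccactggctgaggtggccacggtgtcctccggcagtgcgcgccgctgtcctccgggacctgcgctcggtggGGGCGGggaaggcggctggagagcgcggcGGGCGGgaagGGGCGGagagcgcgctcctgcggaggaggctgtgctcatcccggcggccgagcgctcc
The PBX-HOX form TGATNNAT lay 37 bases before the first Mgst1 start and 151 bases before the Glyat start, and 7.683% of the 32851 RefSeq windows of this length hold it. The homeodomain core TAATTA was in 0 of the 8 sites, against 4.84% of all windows. The GC box GGGCGG was in the windows of Mgst1, Npy and Limch1 shown above, 3 times in Limch1, against 32.742% of all windows. The MEIS form TGACAG was in the second and the third Limch1 site, which are not shown, and in 15.859% of all windows. TATAAA was in the third Limch1 site alone among the 8, and in 12.368% of all windows. GC content of the shown windows ran from 42.8% in Glyat with 1 CpG to 74.4% in Limch1 with 30 CpG, against a median of 52.4% and 6 CpG over all windows. These matches are letters in a window and not measured binding.

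The arrays hold log2 signals, on which a step of 1 is a 2-fold change, and levels of different probe sets are not set against each other below. The median signal of an array ran from 3.96 to 5.32, and the top of that range was replicate 1 of HOXB4const without TMX, well above the rest. The median SD within groups was 1.39 for probe sets in the dimmest 25% by mean level and 0.37 in the brightest 25%. All 6 leading probe sets, and 9 of the 15 probe sets, lay at or above the median mean level of 4.05, and no probe set was filtered out. Kit, which the sort used, read 8.72 to 10.93 on its brighter probe set, and Ly6a (Sca1) was not matched by symbol. The dimmer Hoxb4 probe set read 1.10 to 4.08 on the HOXB4-ER and 4.77 to 5.21 on the HOXB4const arrays, while the brighter one overlapped, at 4.37 to 6.12 and 5.69 to 6.59. Neither is known here to detect the transgene message.

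Cd24a was the gene with the higher level in HOXB4-ER cells. Its leading probe set read 10.36 and 10.63 in HOXB4-ER cells with TMX, 10.26 and 10.29 after 1 h without TMX, and 10.22 and 10.54 after 4 h without it (replicates 1 and 2). In HOXB4const cells it read 8.34 and 7.17 with TMX, and 7.55 and 8.06 without. Every HOXB4-ER array lay above every HOXB4const array, and the nearest arrays at 1 h were 1.91 apart. The HOXB4-ER arrays were close together, within 0.19, 0.02 and 0.22 of each group's mean as SD (n = 2 each), while the HOXB4const groups had SDs of 0.83 and 0.36. The mean difference was 2.75 ± 0.52 with TMX and 2.47 ± 0.52 without (standard error), or 6.70-fold and 5.53-fold on the linear scale. With TMX it was 2.16 without the HOXB4const replicate 2 array and 3.33 without the HOXB4const replicate 1 array. The other Cd24a probe sets went the same way without overlap, with differences of 3.02 and 2.02 for the second and 2.50 and 2.70 for the third, with and without TMX.

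Parm1 was higher in HOXB4const cells. On its leading probe set the HOXB4-ER cells read 5.79 and 6.41 with TMX, 5.69 and 6.53 after 1 h without, and 5.92 and 6.55 after 4 h without. It read 7.85 and 9.31 in HOXB4const cells with TMX and 8.21 and 8.86 without. The constructs did not overlap, and within each group the replicate 2 array was the higher. HOXB4-ER minus HOXB4const was −2.48 ± 0.65 with TMX and −2.43 ± 0.65 without, so HOXB4const stood 5.58-fold and 5.38-fold higher. With TMX the difference was −1.75 without the HOXB4const replicate 2 array and −3.21 without the HOXB4const replicate 1 array. The dimmer Parm1 probe set read 6.54 and 6.60 on the HOXB4const replicate 1 arrays but 3.88 and 2.20 on the replicate 2 arrays, and its HOXB4-ER arrays, at 0.07 to 2.59, overlapped with the last of these.

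Npy was also higher in HOXB4const cells, and there the replicate arrays lay far apart. Its only probe set read 9.24 and 6.29 in HOXB4const cells with TMX and 9.28 and 6.62 without (replicates 1 and 2). In HOXB4-ER cells it read 4.68 and 4.12 with TMX, 5.57 and 4.98 after 1 h without, and 4.91 and 3.76 after 4 h without. The lowest HOXB4const array was 0.72 above the highest HOXB4-ER array, the narrowest gap among the leading probe sets. HOXB4-ER minus HOXB4const was −3.37 ± 1.17 with TMX and −2.68 ± 1.17 without. The size moved with single arrays: the difference was −1.90 without the HOXB4const with TMX replicate 1 array, and −1.35 without the HOXB4const without TMX replicate 1 array, the array with the highest median.

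The enzyme Mgst1 was higher in HOXB4const cells. In HOXB4const cells the leading probe set read 9.80 and 8.60 with TMX and 8.87 and 8.66 without. In HOXB4-ER cells it read 7.33 and 3.78 with TMX, 7.51 and 4.77 after 1 h without, and 6.91 and 3.31 after 4 h without. The constructs did not overlap, but the HOXB4-ER arrays fell into a high replicate 1 and a low replicate 2 level in each group. HOXB4-ER minus HOXB4const was −3.64 ± 1.60 with TMX and −2.63 ± 1.60 without. The upper ends of the 95% confidence intervals were 0.11 and 1.12, and that of Npy without TMX was 0.08. As the members were chosen for this difference, these intervals describe the spread and are no test. Leaving out 1 array at a time moved the value without TMX between −4.00 (without the HOXB4-ER replicate 1 array) and −1.26 (without the HOXB4-ER replicate 2 array). With TMX it ran from −5.42 to −1.87. The dimmer Mgst1 probe set overlapped between the constructs, at −1.42 to 4.29 on the HOXB4-ER and 3.61 to 4.82 on the HOXB4const arrays.

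Glyat, the other enzyme, was higher in HOXB4const cells as well. The leading probe set read 8.47 and 8.88 in HOXB4const cells with TMX and 7.74 and 9.0 without. In HOXB4-ER cells it read 4.86 and 5.57 with TMX, 5.04 and 5.92 after 1 h without, and 3.51 and 5.54 after 4 h without. The constructs did not overlap, with 1.82 between the nearest arrays at 1 h. HOXB4-ER minus HOXB4const was −3.46 ± 0.80 with TMX and −2.89 ± 0.80 without, or 11.0-fold and 7.42-fold higher in HOXB4const. The second probe set followed without overlap (−3.88 and −1.93), while the third, with a mean of 3.09, overlapped (−0.97 and −0.25).

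Limch1 had the steadiest levels in HOXB4const cells. In these cells the leading probe set read 7.75 and 7.76 with TMX and 7.54 and 7.58 without, against 4.22 and 3.48 in HOXB4-ER cells with TMX, 4.54 and 5.33 after 1 h without, and 4.30 and 3.53 after 4 h without. HOXB4-ER minus HOXB4const was −3.91 ± 0.52 with TMX and −2.63 ± 0.52 without. The second probe set read 8.53 and 8.29 in HOXB4const cells with TMX and 8.52 and 8.27 without, and 0.34 to 3.43 over the 6 HOXB4-ER arrays. Its differences were −6.66 ± 1.02 with and −6.51 ± 1.02 without TMX. The HOXB4-ER values of that probe set lie where the dimmest probe sets of the array lie, so its size depends on how low signals are treated: with values below 3 set to 3 it was −5.41 and −5.18. The remaining Limch1 probe sets had means of 3.05 and 1.04 and overlapped between the constructs.

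**Figure D1:**
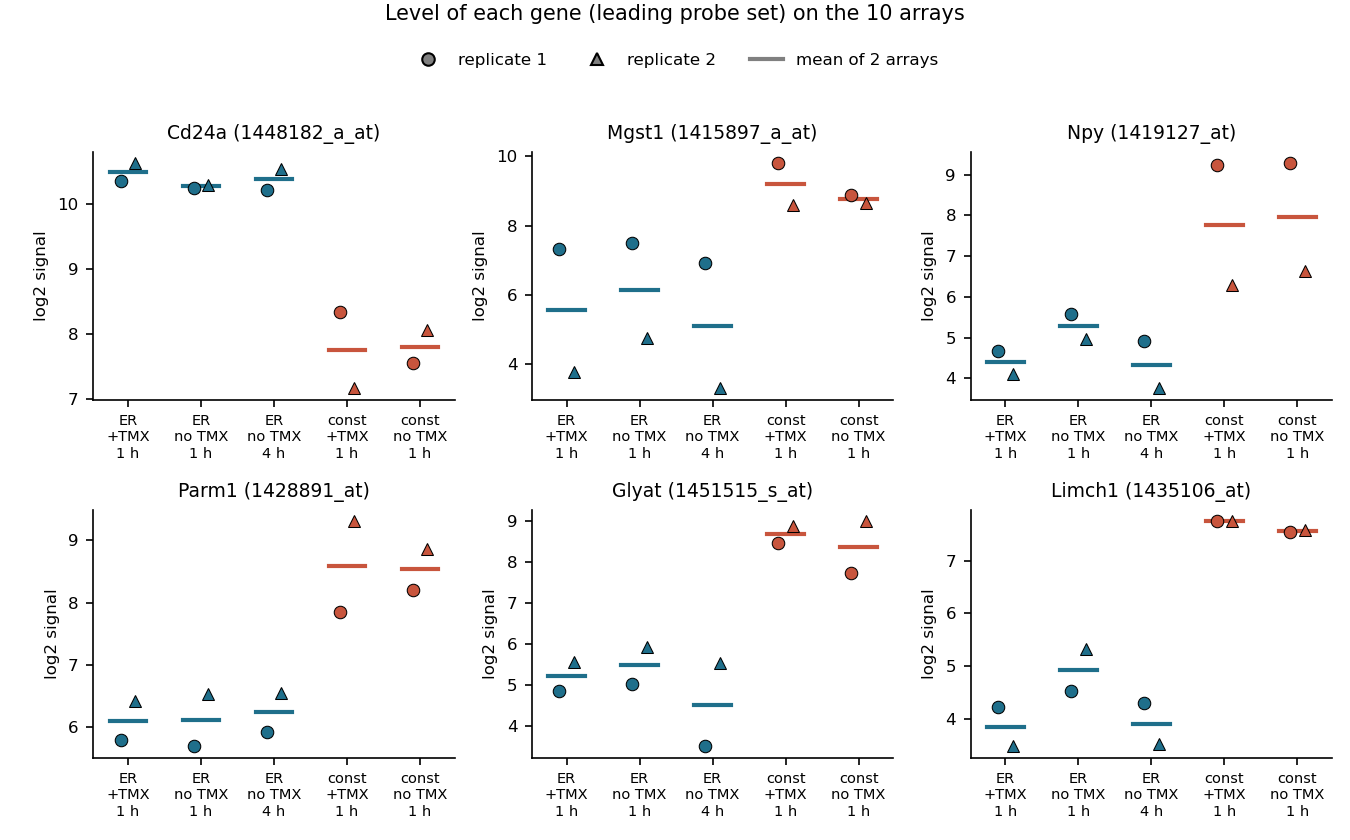
Log2 signal (y axis) of the leading probe set of each of the 6 genes in the 5 groups (x axis), with circles for replicate 1, triangles for replicate 2 and a bar for the mean of the 2 arrays; blue is HOXB4-ER and red HOXB4const. Cd24a lies higher in HOXB4-ER and the other genes lie higher in HOXB4const, with no overlap; the axes of the panels differ and do not start at 0.

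Set side by side, all 3 Cd24a probe sets were higher in HOXB4-ER without overlap at 1 h, and 7 of the 12 probe sets of the other genes were higher in HOXB4const without overlap. Of all 45037 probe sets, 0.928% were higher in HOXB4-ER and 3.26% higher in HOXB4const without overlap at 1 h, 4 arrays against 4. Since the members were chosen for this difference, nothing is read from that contrast. The median of all probe sets was −0.16 without TMX and −0.17 with it, and centring each array on its median would raise every difference by 0.34 and 0.42, which turned the direction of no leading probe set. With the 4 h arrays included, the same 10 of 15 probe sets did not overlap, against 0.391% and 1.85% of all probe sets. Limma passed 0 of 45037 probe sets between the constructs in either TMX condition at an adjusted p under 0.05, with 3070 (6.82%) at an unadjusted p under 0.05 without TMX and 1972 (4.38%) with it. The smallest adjusted p over all probe sets was 0.337 without TMX and 0.715 with it.

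**Figure D2:**
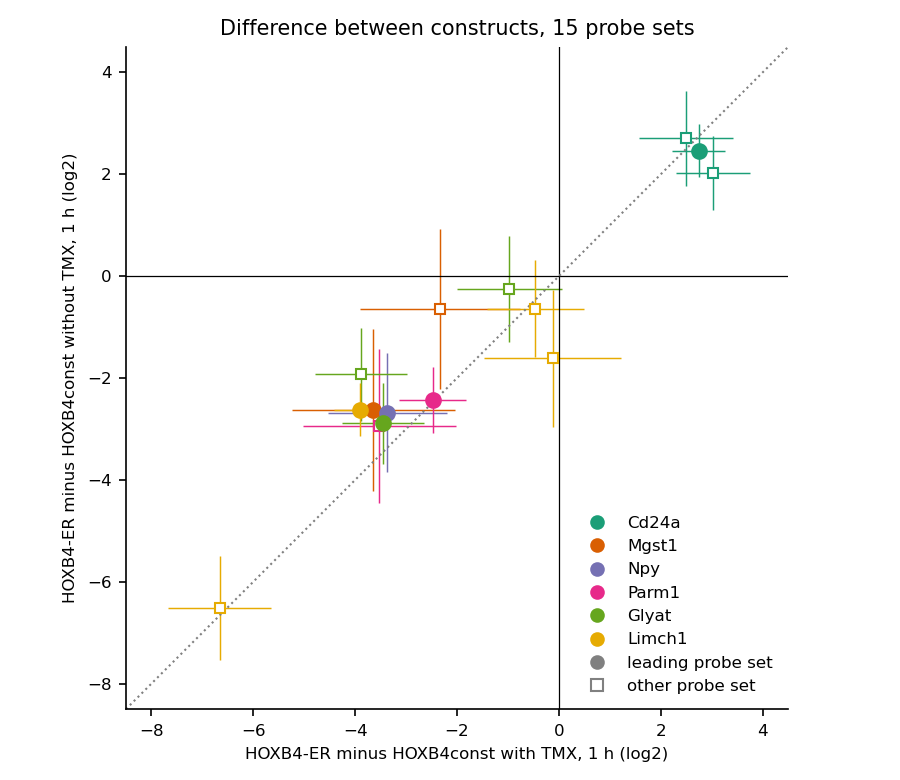
HOXB4-ER minus HOXB4const on the log2 scale with TMX (x axis) and without TMX (y axis) for the 15 probe sets, with bars of 1 standard error; filled circles are leading probe sets, open squares the others, and the dotted line marks equal differences. The Cd24a probe sets lie at 2.02 to 3.02, and the second Limch1 probe set lies at −6.66 and −6.51.

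No probe set of the 6 genes passed the test for TMX withdrawal. These comparisons use the arrays with TMX, on which the members may have been chosen. The HOXB4-ER comparisons at 1 h and 4 h share the same 1 h arrays with TMX, so at 4 h time changes together with TMX. In HOXB4-ER cells the differences of the leading probe sets, without minus with TMX, ran from −0.23 to 1.08 at 1 h and from −0.69 to 0.14 at 4 h, and in HOXB4const cells from −0.43 to 0.19 at 1 h. None of the 15 probe sets had an unadjusted p under 0.05 by limma in these 3 comparisons, against 4.76%, 3.35% and 4.34% of all probe sets. The smallest adjusted p of a member was 1.000 in each. The 95% intervals come from a fit without the replicate number, so they also hold the gaps between the replicate numbers. In HOXB4-ER cells at 1 h they ran from −1.45 to 1.00 for Cd24a and from −3.17 to 4.34 for Mgst1. Within replicates 1 and 2 the changes there were −0.11 and −0.345 for Cd24a and 0.18 and 0.99 for Mgst1.

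Limch1 gave the largest of these values. Its leading probe set was 1.08 ± 0.52 higher after 1 h without TMX in HOXB4-ER cells (95% interval −0.14 to 2.30, limma unadjusted p = 0.0743), with 0.31 in replicate 1 and 1.85 in replicate 2. In HOXB4const cells it was −0.21 and −0.18 in the replicates. The difference between the constructs in this response was 1.28 ± 0.73 (limma unadjusted p = 0.124, adjusted p = 1.000), and 3.77% of all probe sets had an unadjusted p under 0.05 there. That value is also the construct difference without TMX minus the construct difference with TMX. The members were listed for such differences, so its p-values are no independent test of a response. The second Limch1 probe set gave −2.28 and 2.56 in the HOXB4-ER replicates, so it did not repeat the direction. Npy, the next largest at 0.88 ± 1.17, was higher without TMX by 0.90 and 0.86 in the replicates of HOXB4-ER cells and by 0.05 and 0.33 in those of HOXB4const cells.

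From 1 h to 4 h without TMX, a comparison that used no array with TMX, the leading probe sets of 4 genes were lower and those of 2 higher. The choice of the members may have used the arrays of this comparison as well. Mgst1 gave −1.03 ± 1.60, Limch1 −1.02 ± 0.52, Glyat −0.96 ± 0.80 and Npy −0.94 ± 1.17, and Parm1 and Cd24a gave 0.13 ± 0.65 and 0.11 ± 0.52. The smallest adjusted p among leading probe sets was 0.933, for Limch1. The second Glyat probe set, at −2.24 ± 0.91, was the 1 of the 15 under 0.05 before adjustment (limma unadjusted p = 0.0420, adjusted p = 0.849), against 5.68% of all 45037 probe sets, and 0 of those passed. The median of all probe sets was −0.17 in the same comparison.

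**Figure D3:**
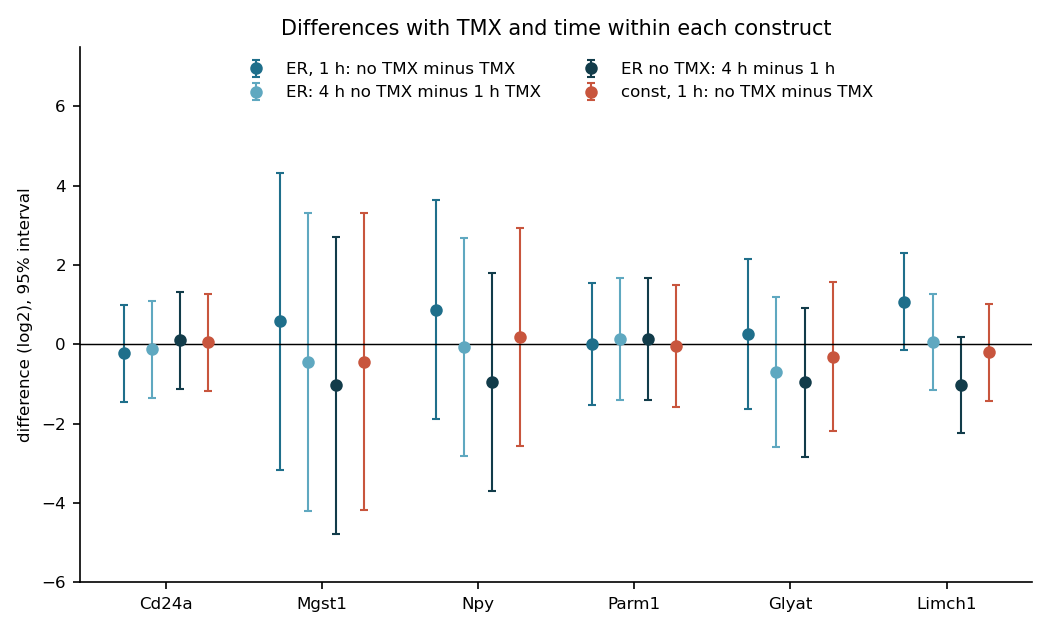
Differences in log2 signal (y axis) of the leading probe sets with TMX and time within each construct, as points with limma's 95% confidence intervals; genes are on the x axis and colours mark the comparisons. All intervals come from the fit without the replicate number and include 0. That of Mgst1 at 1 h in HOXB4-ER cells runs from −3.17 to 4.34.

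The leading probe sets of 4 of the 6 genes differed the same way between the replicate numbers in every group. In each of the 5 groups, Mgst1 and Npy were higher on the replicate 1 array, and Parm1 and Glyat were higher on the replicate 2 array (leading probe sets). By the labels' protocols each sorted population was divided between treatments, so the gaps in the groups of a construct are not independent repeats. The errors and p-values for the replicate number and its gaps, here and below, treat them as independent. Replicate 2 minus replicate 1 was −2.26 ± 0.59 for Mgst1, −1.58 ± 0.47 for Npy, 0.84 ± 0.25 for Parm1 and 1.06 ± 0.31 for Glyat. Cd24a (−0.01 ± 0.32) and Limch1 (−0.14 ± 0.32) gave values near 0 on their leading probe sets, although the third Cd24a probe set was lower on the replicate 2 array in 5 of 5 groups (−1.33 ± 0.30). Over all 15 probe sets, 2 were higher on replicate 2 and 4 higher on replicate 1 in every group, against 6.72% and 11% of all 45037 probe sets. The dimmer probe sets did not repeat the leading ones: the second Mgst1 set was higher on replicate 2 in 3 of 5 groups (−0.89 ± 1.03), the second Parm1 set was higher on replicate 1 in 3 of 5 (−1.20 ± 0.92), and the second Glyat set was higher on replicate 2 in 3 of 5 (0.35 ± 0.60).

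Limma passed 0 of 45037 probe sets for the replicate number, with 6152 (13.7%) at an unadjusted p under 0.05 and 5 of the 15 member probe sets among them. The adjusted p was 0.242 for Mgst1, 0.272 for Npy, 0.268 for Parm1, 0.268 for Glyat and 0.206 for the third Cd24a probe set. These calls depended on how the variance was moderated: with a trend on mean level, limma passed 2728 probe sets, with adjusted p = 0.00295 for Mgst1, 0.0158 for Npy, 0.0191 for Parm1 and 0.0216 for Glyat. An exact two-sided permutation test of 5 arrays against 5, which leaves the construct in the spread, gave p = 0.127 for Mgst1, 0.254 for Npy, 0.365 for Parm1 and 0.405 for Glyat, where the smallest possible p is 0.00794. It passed 0 of 45037 after Benjamini-Hochberg adjustment, which a smallest p of 0.00794 nearly fixes in advance. That count is therefore not set against those of the fits above.

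The replicate gap of Mgst1 and that of Npy were of different size in the constructs, in opposite ways. For Mgst1 it was −3.30 ± 0.38 in HOXB4-ER and −0.71 ± 0.47 in HOXB4const cells. For Npy it was −0.77 ± 0.31 in HOXB4-ER and −2.80 ± 0.38 in HOXB4const cells. The difference of the gaps had limma unadjusted p = 0.00891 for Mgst1 and 0.0103 for Npy, with adjusted p = 0.993 for each and 5% of all probe sets under 0.05, in a fit added after the values were seen that leaves 3 residual degrees of freedom. The dimmer Parm1 probe set gave 0.35 ± 0.68 in HOXB4-ER and −3.53 ± 0.83 in HOXB4const cells (limma unadjusted p = 0.0172, adjusted p = 0.993), while the leading Parm1 set gave 0.70 ± 0.32 and 1.06 ± 0.40.

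**Figure D4:**
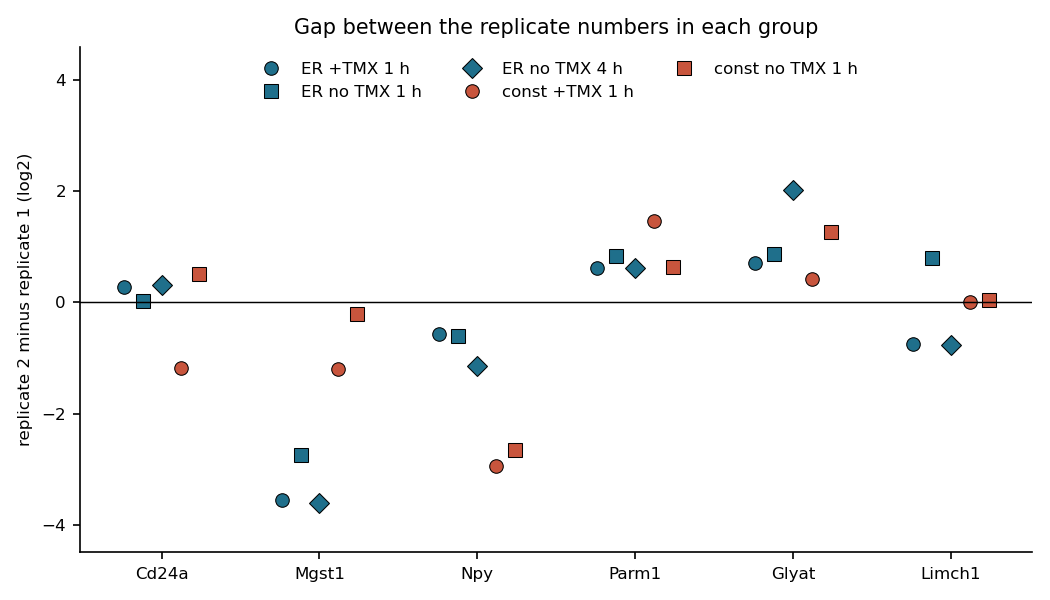
Replicate 2 minus replicate 1 in log2 signal (y axis) of the leading probe set of each gene (x axis), 1 point per group; blue is HOXB4-ER and red HOXB4const. All points of Mgst1 and Npy lie below 0 and all points of Parm1 and Glyat above 0, with the Mgst1 gaps wider in HOXB4-ER (−2.74 to −3.60) and the Npy gaps wider in HOXB4const (−2.66 and −2.95).

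Summed signals of some marker lists for other blood cells also differed between the constructs or the replicate numbers, but limma passed 0 genes of any of the 9 lists in the construct and replicate comparisons. The granulocyte list (14 genes, linear signals summed per array) ran from 13744 to 21837 in HOXB4-ER and from 7833 to 9547 in HOXB4const, the direction of Cd24a. Of its genes 12 were higher in HOXB4-ER with TMX and 10 without, and Mpo and Prtn3 alone did not overlap. A linear sum weighs the brightest genes most, here Ctsg, Mpo and Prtn3 (mean log2 levels of 12.41, 11.95 and 10.78). The megakaryocyte list (11 genes) ran from 1781 to 4851 in HOXB4-ER and from 4864 to 8228 in HOXB4const. The nearest sums almost met, on arrays of different replicate numbers. Within replicate 1 the list gave 1781 to 1897 in HOXB4-ER and 4864 to 5445 in HOXB4const. Within replicate 2 it gave 3950 to 4851 and 5782 to 8228. Its genes went both ways, with 5 of 11 higher in HOXB4-ER with TMX and 4 without, and Itgb3 alone did not overlap. Its brightest gene, the platelet chemokine Pf4, overlapped at 9.59 to 11.78 in HOXB4-ER and 11.57 to 12.68 in HOXB4const (log2). The mast cell and basophil list (12 genes) overlapped over all arrays, at 6592 to 9097 and 8829 to 10962. Within replicate 1 it did not, at 8137 to 9097 in HOXB4-ER and 9532 to 10032 in HOXB4const. Nor did it within replicate 2, at 6592 to 8148 and 8829 to 10962. Of its genes, 7 were higher in HOXB4-ER with TMX and 6 without. Its Cpa3, Ms4a2 and Hdc were higher on every HOXB4const array. Mcpt1 overlapped, at 3.98 to 8.19 in HOXB4-ER and 3.78 to 5.54 in HOXB4const. Mcpt2 also overlapped, at 6.53 to 10.03 and 5.62 to 7.07. Of the stem and progenitor list (10 genes, sums 4342 to 6886 and 4787 to 5973), Mecom was higher on every HOXB4-ER and Procr on every HOXB4const array. The part of these cells in the levels of the 6 genes was not tested.

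With the replicate number, the monocyte and macrophage list (14 genes) ran from 9688 to 14526 on replicate 1 and from 1362 to 2467 on replicate 2 arrays, the dendritic list (12 genes) from 685 to 5544 and from 305 to 377, and the T and NK cell list (10 genes) from 338 to 725 and from 168 to 305. On replicate 1 the dendritic list also differed between the constructs, at 4742 to 5544 in HOXB4-ER and 685 to 719 in HOXB4const. On replicate 2 it overlapped, at 313 to 377 and 305 to 327. Of the pathway lists, the sums of glutathione and MAPEG genes (16388 to 21066 on replicate 1, 13366 to 16158 on replicate 2) and of CD24 ligands and GPI-linked proteins (9281 to 12705 and 8062 to 8883) also lay higher on replicate 1. Those of glycine conjugation and supply lay higher on replicate 2 (2501 to 2858 and 2964 to 4079). Mgst1 and Npy were higher on the replicate 1 arrays, as these marker lists were, and Parm1 and Glyat were higher on the replicate 2 arrays. The excess of the 3′ over the 5′ Gapdh control signal on the log2 scale, which grows as RNA or its amplified copies get shorter, ran from 0.74 to 1.42 on replicate 1 and from 1.48 to 3.98 on replicate 2 arrays, and overlapped between the constructs (1.01 to 3.47 in HOXB4-ER, 0.74 to 3.98 in HOXB4const). Their part in the replicate gaps was not tested. Between the constructs, the erythroid list (10 genes, 834 to 1821 in HOXB4-ER and 984 to 1460 in HOXB4const), the B cell list (11 genes, 117 to 434 and 59.0 to 388) and the T and NK cell list (187 to 725 and 168 to 467) overlapped, with 8, 8 and 7 of their genes below the median level.

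**Figure D5:**
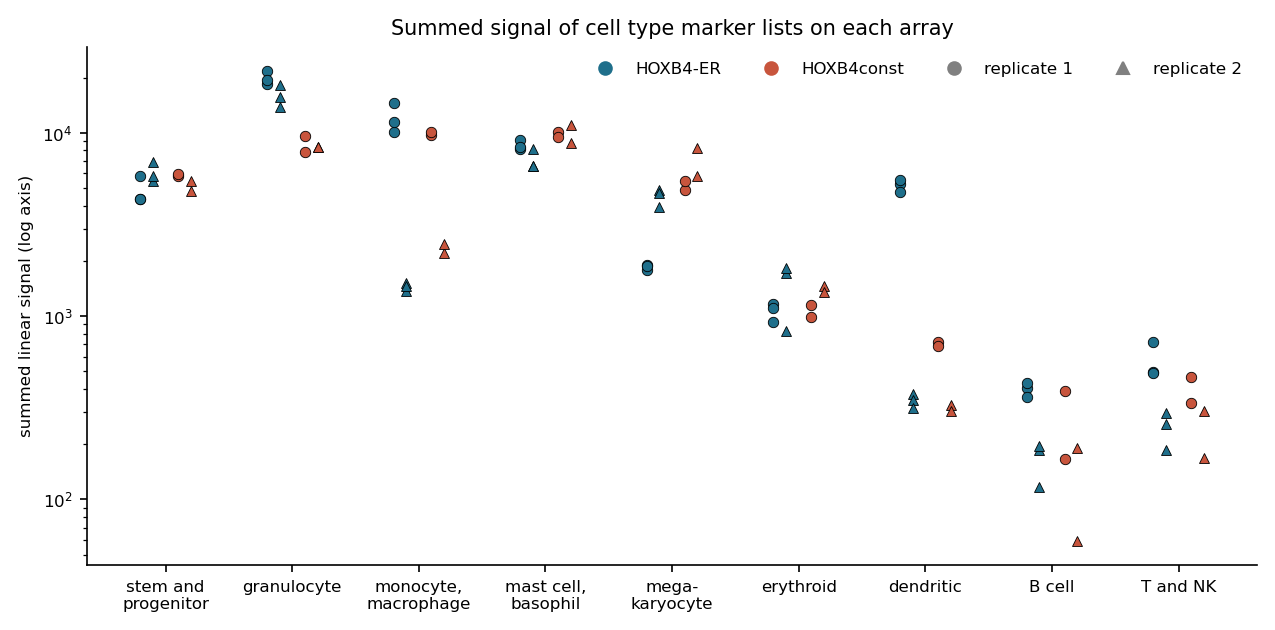
Summed linear signal of 9 cell type marker lists (x axis) on each of the 10 arrays, on a log axis; blue is HOXB4-ER, red HOXB4const, circles are replicate 1 and triangles replicate 2. The granulocyte and megakaryocyte sums separate the constructs (13744 to 21837 against 7833 to 9547, and 1781 to 4851 against 4864 to 8228), and the monocyte, dendritic and T and NK cell sums separate the replicate numbers. On replicate 1 the dendritic sums also lie higher in HOXB4-ER than in HOXB4const. The brightest genes weigh most in a sum, and in the granulocyte and megakaryocyte lists only Mpo, Prtn3 and Itgb3 do not overlap between the constructs.

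The pathway lists hold relatives and partners of the members. Between the constructs, limma passed 0 genes in any of the 6 pathway lists in either TMX condition, each gene by its brightest probe set. Of the 37 measured glutathione and MAPEG genes, the family and substrate pathway of Mgst1, 28 were lower in HOXB4-ER with TMX and 20 without (medians −0.37 and −0.13, against −0.10 and −0.08 over all genes). Its smallest p without TMX belonged to the glutathione transferases Gsta4 (−2.24 ± 1.04) and Gstm5 (−1.74 ± 0.89). Of the 12 genes of the Npy list (related peptides, receptors and processing enzymes), 7 were lower in HOXB4-ER with TMX and 5 without. Its Pyy, the related gut peptide, gave −2.24 ± 0.74 without TMX, and Dpp4, a protease that trims neuropeptide Y, gave 1.51 ± 0.58 without and 2.99 ± 0.58 with TMX (limma adjusted p = 0.704 and 0.715).

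The remaining lists lay near the median of all genes. The 18 CD24 ligands and GPI-linked proteins had medians of −0.14 with and 0.12 without TMX, and led without TMX with Art4 (2.78 ± 0.80) and Cd55 (−3.10 ± 1.22), both GPI-anchored. The 18 sialomucins, set beside Parm1, had medians of −0.04 and 0.05, and led with Muc4 (−3.12 ± 1.09) and Pdpn (−1.5 ± 0.65). The 13 genes of glycine conjugation and supply had medians of −0.08 and −0.09, and led with Gldc of the glycine cleavage system (−3.62 ± 1.22) and the acyl-CoA synthetase Acsm1 (−2.48 ± 1.5). The 34 actomyosin and LIM or CH domain genes, the setting of Limch1, had medians of −0.08 and −0.07, and led with Mylk, a myosin light chain kinase (−2.26 ± 1.05), and Myl9, a myosin light chain (−1.75 ± 0.85). These named genes were the 2 of each list with the smallest p without TMX, and none passed.

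The genes whose levels ran most like each member were found among 11341 genes over the 10 arrays. The arrays share the construct difference by which members were chosen, so these correlations describe that split. Cd24a ran with Padi4 (r = 0.96), C730049O14Rik (0.95) and Mpo (0.94), the myeloperoxidase of neutrophil granules. Parm1 ran with the IgE receptor subunit Ms4a2 (0.97), Hspa4l (0.95) and Hdc (0.95), the histamine-forming enzyme. Npy ran with Ms4a2 (0.96, on another of its probe sets), Trappc9 (0.94) and Marveld1 (0.93). Mgst1 ran with Tm2d2 (0.95), Slc36a4 (0.94) and Cd33 (0.94). Glyat ran with the actin-severing gene Scin (0.98), Hspa4l (0.96) and Gng11 (0.96), and Limch1 with Farp1 (0.96), Plscr3 (0.96) and Chdh (0.94).

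Among themselves, the 5 genes higher in HOXB4const correlated at 0.56 (Mgst1 and Parm1) to 0.94 (Parm1 and Glyat) over the 10 arrays, and Cd24a ran against each of them, at −0.77 to −0.95. After each construct's mean was removed, Npy ran against Parm1 (−0.86), Mgst1 ran against Parm1 (−0.72) and Parm1 ran with Glyat (0.59), and Cd24a stayed between −0.36 and 0.21. The gaps between the replicate numbers remain in these values. Mgst1 and Npy were higher on replicate 1 and Parm1 and Glyat on replicate 2 in every group, so these correlations hold that split.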

How the data were processed

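The values are deposited log2 signals, 1 per probe set and array. GCOS and RMA are both listed, with no role, per the submitters' processing notes. In the deposited file the trimmed mean of the linear signal was 100 on each array, quantiles differed and values went below 0, so the log2 values were used as scaled by the authors, without further normalization. Background correction, detection calls and scan dates are not stated in the sources used here. The number of arrays limits the precision, and dim probe sets vary more between replicates.

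Of 45101 probe sets, 64 controls were left out. Symbols come from GEO's platform annotation, in which 34945 probe sets have 1 symbol, 932 have several and 9160 have none. Limma 3.58.1 in R 4.3.3 fitted 5 group means over all 10 arrays (5 residual and 2.21 prior degrees of freedom), with two-sided moderated tests and Benjamini-Hochberg adjustment over 45037 probe sets within each of 8 comparisons. Errors of differences are moderated standard errors. The replicate comparison adds the replicate number as a term. A permutation test over arrays used exact enumeration.

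The members and gene lists were chosen with earlier results of these data known. Named genes were the 6 members with every probe set, the 2 of each pathway list with the smallest p without TMX, the 3 genes most correlated with each leading probe set (mean level at or above the median), and Kit, Ly6a and Hoxb4. The fit was tested on simulated data. Alternatives were centring, quantile normalization, a level filter, a floor of 3, a variance trend, fewer groups, averaged probe sets, the replicate block, no group means and leaving out each array, and separate replicate terms per construct, which were added after the values were seen. Same-numbered arrays deviated together in 10 of 10 pairs of groups (r = 0.21 to 0.53 over the 22519 sets at or above the median level). Each sorted population was divided between treatments, per the labels' protocols, so the numbers were taken to pair the arrays.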

Additional observations from a re-analysis of the deposited data

Results flagged for a closer look

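Limch1 moved one way in both replicates of HOXB4-ER cells and the other way in both replicates of HOXB4const cells when TMX was withdrawn for 1 h. The leading probe sets of all 6 genes were searched for this pattern and for replicate gaps of opposite direction in the constructs. Only this case was flagged. The share of all probe sets with such a pattern was not counted, so nothing is read from the flag. Its leading probe set changed by 0.31 and 1.85 in HOXB4-ER and by −0.21 and −0.18 in HOXB4const (log2, without minus with TMX), and the means differed by 1.28. Limma's test of that difference gave an unadjusted p of 0.124 and an adjusted p of 1.000. The tested value is made of the construct differences for which the members were listed, so nothing is read from these p-values either. The second Limch1 probe set gave −2.28 and 2.56 in HOXB4-ER and −0.0017 and −0.02 in HOXB4const.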

How the results depend on the processing

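The construct differences of the leading probe sets kept their direction under all alternatives run: 136 of 144 values stayed within the replicate spread, 8 moved and 0 reversed. The level filter, the variance trend, fewer groups and the replicate block cannot change these differences of group means. Nor can the floor of 3, since every level of a leading probe set lay above 3. The values under these settings stayed the same by construction. Leaving out 1 array cannot reverse a difference between constructs that do not overlap. The members were also chosen for this difference, so these counts are no test of it. With all probe sets of a gene averaged, Glyat gave −1.69 without TMX and Limch1 −2.79 with TMX. Without replicate 1 of HOXB4const without TMX, the array with the highest median, the differences without TMX were 2.21 for Cd24a, −2.52 for Mgst1, −1.35 for Npy, −2.75 for Parm1, −3.52 for Glyat and −2.64 for Limch1. With the replicate block, 0 probe sets passed in each of the other comparisons, as without it, and it changed no call.

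Counts of probe sets past the threshold were 0 in every comparison and moved with few settings. With values below 3 set to 3 they were 2 and 1 between the constructs without and with TMX, 1 for the difference between constructs in TMX withdrawal and 9 for the replicate number. For the replicate number they were also 850 among probe sets at or above the median level, 2728 with a variance trend and 343 without group means. The cause was not tested. Leaving out any 1 array left each count at 0. A fit on only the groups compared does not apply to the replicate number, which uses all of them.

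Of 630 member values under an alternative, 69 reversed, and the smallest adjusted p among those was 0.643 by limma. With each array centred on its median, withdrawal at 1 h gave −0.38 for Parm1 and −0.12 for Glyat in HOXB4-ER and −0.26 for Cd24a and −0.12 for Npy in HOXB4const cells, the difference of responses −0.025 for Parm1, and the replicate number 0.31 for Cd24a and 0.19 for Limch1. With quantile normalization Parm1 gave −0.068 in HOXB4-ER and 0.051 in HOXB4const cells at 1 h and −0.12 for their difference, and Limch1 0.11 for the replicate number. With all probe sets of a gene averaged, HOXB4-ER cells gave −0.11 for Parm1 and −0.060 for Glyat at 1 h, and 0.35 for Mgst1, −0.49 for Parm1 and −0.18 for Limch1 at 4 h. HOXB4const cells gave 0.30 for Mgst1 and 0.16 for Limch1. From 1 h to 4 h, Cd24a gave −0.035 and Parm1 −0.38. Limch1 gave −0.060 for the difference of responses, and Parm1 −0.18 for the replicate number. The cause was not tested.

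Leaving out 1 array at a time, withdrawal in HOXB4-ER cells at 1 h ran from −1.19 to 2.36 for Mgst1, −0.41 to 0.42 for Parm1 and −0.18 to 0.70 for Glyat. At 4 h it ran from −0.28 to 0.040 for Cd24a, −2.25 to 1.36 for Mgst1, −0.64 to 0.51 for Npy, −0.18 to 0.45 for Parm1, −1.71 to 0.32 for Glyat and −0.32 to 0.45 for Limch1. In HOXB4const cells it ran from −0.54 to 0.64 for Cd24a, −1.03 to 0.17 for Mgst1, −1.28 to 1.66 for Npy, −0.78 to 0.68 for Parm1 and −0.94 to 0.33 for Glyat. From 1 h to 4 h it was −0.050 to 0.27 for Cd24a, −2.83 to 0.77 for Mgst1, −0.29 to 0.55 for Parm1 and −1.97 to 0.058 for Glyat. The difference of responses was −0.87 to 0.31 for Cd24a, −0.76 to 2.79 for Mgst1, −0.78 to 2.16 for Npy, −0.68 to 0.79 for Parm1 and −0.066 to 1.20 for Glyat. For the replicate number it was −0.14 to 0.28 for Cd24a and −0.37 to 0.022 for Limch1. A group left with 1 array is assumed to vary like the others. Signal over background limits the dim probe sets, for which no detection calls were used.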
